A study of Mus musculus with 90 samples.

Results

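The peroxisome gene group comprised 44 of the 27654 genes of the liver count tables, chosen by symbol for their roles in the organelle. Of these, 13 were peroxins (*Pex* genes), which build peroxisomes, and 31 encoded enzymes and transporters that work in or around them. The members were chosen with earlier results of these data known, so their shares are not free of that choice. Peroxisomes are small organelles bounded by a membrane that shorten very-long-chain and branched fatty acids, make bile acid precursors and ether lipids, and oxidize urate and glyoxylate precursors. They hold no DNA, so every protein is encoded in the nucleus, made in the cytosol and brought in by receptors that cycle between cytosol and membrane. In hepatocytes peroxisomes are abundant, and many genes of their fatty acid oxidation are known targets of the nuclear receptor PPARα, which is active in fasting.

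The biogenesis members covered 6 steps. *Pex5* and *Pex7* encode the receptors that carry enzymes to the organelle, *Pex13* and *Pex14* the docking proteins that receive them, *Pex2* and *Pex10* ubiquitin ligases that mark the receptors for export, and *Pex6* and *Pex26* an export ATPase and its membrane anchor. *Pex3*, *Pex16* and *Pex19* insert membrane proteins, and *Pex11a* and *Pex11g* act in elongation and division of the organelle. Among the other members, *Abcd3*, *Abcd4* and *Slc27a2* stood for uptake and activation of fatty acids, although *Abcd4* is best known as a vitamin B12 transporter of lysosomes. Fatty acid β-oxidation was covered by 8 members (*Acox2*, *Acox3*, *Ehhadh*, *Hsd17b4*, *Acaa1a*, *Acaa1b*, *Scp2* and *Amacr*), the auxiliary steps for unsaturated fatty acids by *Decr2*, *Ech1* and *Eci2*, and α-oxidation of phytanic acid by *Phyh* and *Hacl1*. The carnitine acyltransferases *Crot* and *Crat*, the thioesterase *Acot8*, malonyl-CoA decarboxylase *Mlycd* and the Nudix hydrolases *Nudt7*, *Nudt12* and *Nudt19* export products or turn over coenzyme A and nucleotides. *Hao1*, *Agxt*, *Pipox*, *Dao* and *Uox* oxidize or transaminate glycolate, glyoxylate, amino acids and urate, and *Agps*, *Gnpat* and *Far1* start ether lipid synthesis.

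The study asked how the hepatic glucocorticoid receptor (GR, encoded by *Nr3c1*) shapes the response of the mouse liver to caloric restriction over the day, using polyA RNA-seq of 90 livers. A time series covered WT and hepatocyte GR knockout mice on both diets at 6 times of day 4 h apart, a separate experiment compared the diets in WT mice at ZT12, and another gave WT mice corticosterone (CORT). ZT is the time since lights on in h, so that ZT12 is lights-off. All mice were males on the C57BL/6J background on chow, 12 weeks old when the protocol began. In the time series WT mice carried floxed GR alleles without Cre (GR fl/fl), and GR LKO mice were GR fl/fl x Alb-Cre. Caloric restriction (cal. res.) reduced intake stepwise to 40% fewer calories, with food given at ZT12, and the control diet (ctrl.) was free feeding until the last week and night-restricted feeding in it, with food removed at ZT0. In the diet experiment the ctrl. libraries are titled AL and their treatment is labelled as night-restricted feeding. In the CORT experiment mice received CORT by injection on 7 days, at ZT11 by the study's methods and at ZT12 by its results, or, by both, vehicle, and the control libraries are labelled as night-restricted feeding. The paper describes the Alb-Cre knockout as hepatocyte-specific, and these bulk data do not show GR by cell type. In bulk liver fewer cells of a type and less RNA per cell cannot be told apart.

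Each library came from the liver of a separate mouse. The time series held 3 libraries per diet, genotype and time point, and 4 in the ctrl. groups of either genotype at ZT8 and ZT12 and of WT at ZT16 and ZT20, which gave 36 cal. res. and 42 ctrl. libraries. The diet and CORT experiments held 3 libraries per group. Totals ran from 14235473 to 20788575 counts per library in the cal. res. time series (median 17386700), from 10057544 to 17089004 in the ctrl. time series (median 13427104), from 36442195 to 39492146 in the diet experiment and from 13739631 to 16077943 in the CORT experiment. The 44 members together took 1.10% to 1.63% of the counts of a cal. res. library and 1.36% to 1.90% of a ctrl. library of the time series. The library least like the others of its group was replicate 1 of GR LKO at ZT20 on ctrl., with a Pearson r over log2 CPM of 0.964 with their mean. Because the libraries of each diet were a separate set in the time series, diet and library set cannot be told apart there, and the diet effect was taken from the diet experiment. Levels are CPM after TMM scaling, which corrects for differences in library composition. Differences are log2 ratios with their standard error after ±, from edgeR's quasi-likelihood F test, and a gene was called when its p, adjusted by Benjamini-Hochberg over all genes tested, was under 0.05. Members given full values in a comparison were picked among those called, by the size of their difference. Lack of overlap between their groups is thus no further support, and the share of all genes without overlap is not given. Counts of members called in the main fits are set beside the share of all genes called in the same comparison. Counts from alternative fits, other tools or unadjusted p are given without that share and are not read as results about the members. *Dao* stayed under the filter on low counts in every comparison, at 0.0232 CPM in WT on cal. res. at ZT12, which left 43 members tested (13 biogenesis and 30 others).

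*Nr3c1*, the targeted gene, was low in every GR LKO library. On cal. res. the 18 WT libraries ran from 70.5 to 113 CPM with a median of 94.0 and the 18 GR LKO libraries from 21.6 to 32.2 CPM with a median of 25.0. On ctrl. the 22 WT libraries ran from 72.8 to 117 CPM with a median of 86.9 and the 20 GR LKO libraries from 16.2 to 28.8 CPM with a median of 21.7. The genotypes did not overlap on either diet, and the residual signal was 31.3 CPM on average at ZT12 on cal. res. against 101 in WT. Averaged over the 6 time points the genotype difference was -1.84 ± 0.035, adjusted p 1.01e-24 on cal. res. and -1.96 ± 0.047, adjusted p 5.13e-26 on ctrl., and the interaction of genotype and diet was 0.12 ± 0.059, adjusted p 0.290. In WT mice *Nr3c1* was not called for diet (-0.083 ± 0.063, adjusted p 0.317) or for CORT (-0.063 ± 0.13, adjusted p 0.808).

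Peroxisomal enzymes were expressed well above biogenesis genes. Per kilobase of exon, which allows levels to be compared between genes, the median level over the day in WT livers on cal. res. was 49.4 CPM per kb for enzymes and transporters and 11.2 for biogenesis members, beside 2.70 for all genes tested. On ctrl. the same medians were 54.1, 10.9 and 2.78 CPM per kb. On cal. res. the highest levels belonged to *Phyh* (809.8 CPM per kb), the hydroxylase that opens phytanic acid degradation, *Scp2* (704), which encodes a lipid carrier and a thiolase, *Uox* (396), which oxidizes urate, *Acaa1b* (303), a thiolase, and *Slc27a2* (229.9), which activates very-long-chain fatty acids. Highest among biogenesis members were *Pex19* (32.0 CPM per kb), *Pex5* (31.9), *Pex16* (31.1) and *Pex11a* (27.4), levels within a narrow range. At the low end stood *Agps* (1.48 CPM per kb), *Pex10* (1.47), *Abcd4* (1.45), *Far1* (0.349) and *Dao* (0.0172). Genes in this ranking were picked for their level after it was seen. *Acaa1a* and *Acaa1b* are close paralogs, so the division of counts between them is less certain than their sum.

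Across the day in WT livers, 21 members were called rhythmic on each diet, a match that did not hold with fewer libraries. The counts of the diets were not compared by a test. Rhythms were tested with JTK_CYCLE at a period of 24 h on variance-stabilized values, and a gene was called rhythmic at an adjusted p under 0.05 and an amplitude over 0.1. On cal. res., 21 of the 44 members were rhythmic in WT (7 of 13 biogenesis, 14 of 31 enzymes and transporters), where 21.3% of all genes tested were. On ctrl. the count in WT was also 21 (8 biogenesis, 13 others), beside 25.1% of all genes. These shares include genes under the filter on low counts. On cal. res. the rhythm test in WT took in 18651 genes, while 13041 genes passed that filter, among them 43 of the members. The shares are thus not those of genes at levels like the members', and the excess of members over them is not read as a result. The share among genes past the filter is not given. Swings were moderate: the median ratio of the highest to the lowest group mean on cal. res. was 1.44 for biogenesis members, 1.68 for enzymes and transporters and 1.71 for all genes tested, and on ctrl. 1.33, 1.38 and 1.49. Peaks of the means, rhythmic or not, were spread over the day on cal. res.: of the 30 enzymes and transporters of WT above the filter on low counts, 8 peaked at ZT12, 7 at ZT20, 5 each at ZT0 and ZT16, 3 at ZT4 and 2 at ZT8. On ctrl., 17 of the 30 had their highest mean at ZT12, but of the 13 that were rhythmic JTK placed 5 at ZT12 and 4 at ZT0, beside 19.8% and 24.7% of all rhythmic genes. With fewer libraries the count in WT on cal. res. fell to 5 without replicate 1 of every group, to 5 without replicate 2 and to 4 without replicate 3, and on ctrl. it lay between 15 and 18.

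Among biogenesis members on cal. res., the division gene *Pex11a* had the widest swing in WT. Its libraries read 160.5, 148 and 154 CPM at ZT12 and 58.5, 51.5 and 63.3 CPM at ZT0, so that the time points did not overlap, a ratio of means of 2.67 (JTK adjusted p 0.000121). Its relative *Pex11g* ran the opposite way, with 25.0, 23.2 and 26.3 CPM at ZT12 and 43.8, 47.0 and 52.9 at ZT0, a ratio of 1.93 (JTK adjusted p 0.00952). The ubiquitin ligase *Pex2* had a peak of 31.9 CPM at ZT16 and a trough of 17.6 CPM at ZT8, a ratio of 1.82 (JTK adjusted p 0.00952). On ctrl., *Pex11a* in WT swung between 114 CPM at ZT12 and 59.7 CPM at ZT4, and *Pex26*, singled out after its values were seen, between 47.3 CPM at ZT12 and 22.7 CPM at ZT4. *Pex26* was also rhythmic in WT on cal. res. (JTK adjusted p 0.0434), with means from 22.3 to 30.6 CPM and libraries from 20.9 to 35.1 CPM. Swings were not tested between diets.

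Of the 6 enzymes with the widest swings in WT on cal. res., 5 were lowest at ZT8 or ZT12 and *Eci2* was highest at ZT12. *Nudt7*, which hydrolyzes coenzyme A, had a peak of 307 CPM at ZT20 and a trough of 72.6 CPM at ZT12, a ratio of 4.22. *Crot*, which moves shortened acyl groups to carnitine for export, read 863, 722 and 817 CPM at ZT0 and 225, 252 and 213 at ZT12, without overlap, a ratio of 3.48. *Hacl1*, the lyase of α-oxidation, had a peak of 777 CPM at ZT20 and a trough of 222 CPM at ZT8, a ratio of 3.50. These genes had their highest mean at ZT20 or ZT0 and their lowest at ZT8 or ZT12. *Hao1*, glycolate oxidase, ranged from 104 CPM at ZT8 to 258 CPM at ZT20, and *Crat*, carnitine acetyltransferase, from 44.1 CPM at ZT8 to 116 CPM at ZT16. *Eci2*, an isomerase for unsaturated fatty acids, was highest at lights-off instead, with 305 CPM at ZT12 and 111 CPM at ZT20. All 6 genes were rhythmic in WT on cal. res., with JTK adjusted p from 0.000121 for *Crot* and *Hacl1* to 0.0434 for *Hao1*.

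Few of these rhythms were called changed without GR. On cal. res., 20 members were rhythmic in GR LKO livers (6 biogenesis, 14 others), beside 19.6% of all genes, and on ctrl. also 20 (4 biogenesis, 16 others), beside 21.6%. As in WT, both shares include genes under the filter on low counts, so the excess of members over them is not read as a result. Of the biogenesis members on cal. res., 5 were rhythmic in both genotypes, 2 in WT alone, 1 in GR LKO alone and 5 in neither, and on ctrl. these counts were 4, 4, 0 and 5. Of the enzymes and transporters, they were 10, 4, 4 and 13 on cal. res. and 11, 2, 5 and 13 on ctrl. A rhythm called in 1 genotype does not show a difference, which was tested with limma as an interaction of genotype with 24-h cosine and sine terms. On cal. res. 2 of the 43 members tested had a changed rhythm, beside 0.652% of all genes tested. Both were β-oxidation genes, *Acaa1b* (F 11.8, adjusted p 0.0337) and *Acox2* (F 11.2, adjusted p 0.0394), and limma called no biogenesis member, with 4 at an unadjusted p under 0.05. On ctrl. limma called none of the 43, beside 0.366% of all genes, with 10 members at an unadjusted p under 0.05, and *Acox2* had an adjusted p of 0.0536. No other tool was run for this test.

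*Acox2*, which encodes the oxidase for branched fatty acids and bile acid intermediates, dipped deeply at lights-off without GR. In WT on cal. res. its means lay between 129 CPM at ZT8 and 255 CPM at ZT20. In GR LKO they lay between 50.4 CPM at ZT12 and 204 CPM at ZT0, a ratio of 4.04 against 1.97 in WT. *Acaa1b* in WT was lowest at ZT16 (448 CPM) and highest at ZT4 (764 CPM), and in GR LKO lowest at ZT20 (1306 CPM) and highest at ZT12 (1997 CPM). With fewer libraries both calls were lost: without replicate 1, without replicate 2 or without replicate 3 of every cal. res. group, no member was called for a changed rhythm. On ctrl. the count became 1 without replicate 4, and also without replicate 1 of GR LKO at ZT20. The rhythmic count in GR LKO on cal. res. fell from 20 to 2 without replicate 1, to 2 without replicate 2 and to 4 without replicate 3. On ctrl. it fell from 20 to 5 without replicate 1, to 6 without replicate 2 and to 7 without replicate 3.

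**Figure D1:**
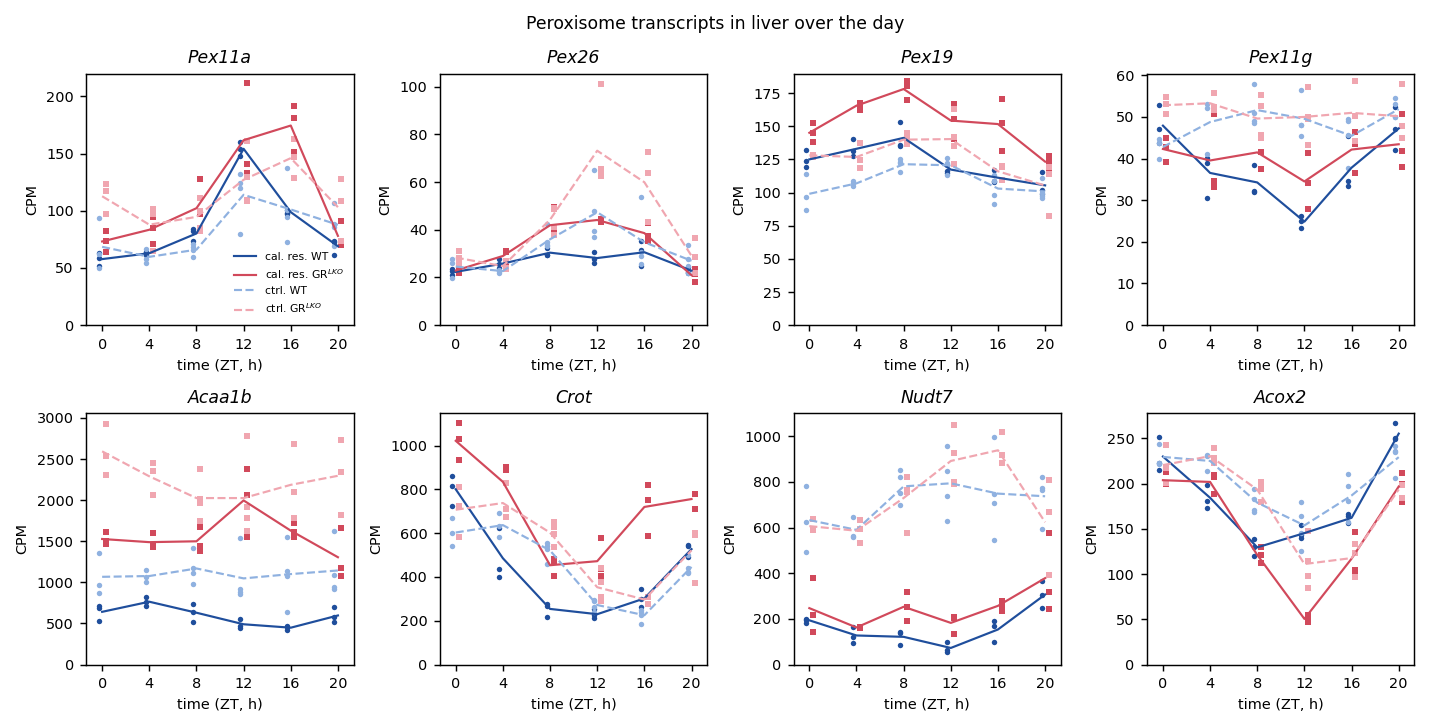
Level in CPM after TMM scaling (vertical axis, from 0) against ZT in h (horizontal axis) for 4 biogenesis members and 4 enzymes, in WT and GR LKO livers on cal. res. and ctrl.; points are libraries and lines join group means. *Pex11a* in WT on cal. res. rises to 154 CPM at ZT12, *Acaa1b* is higher in GR LKO at every time, and *Acox2* in GR LKO on cal. res. drops to 50.4 CPM at ZT12.

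The diet experiment asked what caloric restriction did in WT livers at ZT12, just before the meal. Most of the members tested were called, and most of those called were lower. The other peroxisome genes tested, given below, were called at a share close to that of all genes. Of 43 members, 31 were called, 6 higher and 25 lower on cal. res., where 47.1% of all genes tested were called, 23.5% higher and 23.6% lower. Both classes took part: 2 biogenesis members were higher and 9 lower of 13, and 4 enzymes and transporters were higher and 16 lower of 30. The median log2 difference was -0.33 over the members (-0.39 for biogenesis, -0.28 for the others), and near 0 over all genes tested. Summed over the 13 biogenesis members the level was 909 ± 33.9 CPM (SD, n = 3) on ctrl. and 706 ± 1.61 on cal. res., and over the 31 others 17012 ± 475 and 11786 ± 248 CPM. Leaving out each library in turn gave counts from 24 to 33.

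Biogenesis genes that fell on cal. res. came from several steps of assembly. *Pex26*, the anchor of the export ATPase, read 85.8, 79.5 and 63.6 CPM on ctrl. and 23.6, 30.8 and 25.1 on cal. res. (log2 difference -1.53 ± 0.14, adjusted p 0.000403). The division gene *Pex11g* read 47.9, 49.4 and 42.0 CPM on ctrl. and 26.7, 18.4 and 15.2 on cal. res. (-1.21 ± 0.19, adjusted p 0.00250). *Pex19*, the chaperone of membrane proteins, read 155, 173 and 154 CPM on ctrl. and 92.7, 77.1 and 69.7 on cal. res. (-1.01 ± 0.11, adjusted p 0.000703). In all 3 the cal. res. libraries lay below every ctrl. library. *Pex10*, a ubiquitin ligase of low level, read 5.57, 5.85 and 6.42 CPM on ctrl. and 3.84, 2.91 and 2.29 on cal. res. (-0.98 ± 0.20, adjusted p 0.00606), again without overlap. All 3 members of membrane protein insertion were lower, as were both of receptor export. The exceptions, named after their values were seen, were *Pex11a* (0.75, adjusted p 0.00586) and the docking gene *Pex13* (0.33, adjusted p 0.0419), the 2 biogenesis members called higher. When the WT libraries of the time series at ZT12 were compared instead, where diet and library set cannot be told apart, the count was 27 (10 higher, 17 lower). Of these, 20 were also called in the diet experiment, and *Pex19* was not called (-0.062, adjusted p 0.494). The share of all genes called in that comparison is not given, so the count and the overlap cannot be read against it.

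Coenzyme A turnover held the widest difference between diets. *Nudt7* read 836, 771 and 883 CPM on ctrl. and 50.8, 34.5 and 33.9 on cal. res., a log2 difference of -4.39 ± 0.18, adjusted p 3.33e-05, and every cal. res. library lay far below every ctrl. library. In uptake and activation, *Abcd4* was higher on cal. res., with 9.33, 8.18 and 7.63 CPM on ctrl. and 26.7, 27.6 and 23.4 on cal. res. (1.62 ± 0.11, adjusted p 0.000134), while the other 2 members of that role were lower. β-oxidation was mostly lower, with 6 members lower and 1 higher of 8. *Acox3*, an oxidase for branched chains, read 40.9, 45.4 and 39.3 CPM on ctrl. and 20.6, 17.8 and 17.0 on cal. res. (-1.18 ± 0.098, adjusted p 0.000255), *Amacr*, the racemase that prepares branched chains, 154, 143 and 124 CPM on ctrl. and 76.2, 65.1 and 69.0 on cal. res. (-1.01 ± 0.10, adjusted p 0.000499). *Scp2* fell from the highest level of these, with 4525, 4318 and 4645 CPM on ctrl. and 2439.7, 2465 and 2498 on cal. res. (-0.87 ± 0.068, adjusted p 0.000220). None of these 3 overlapped between diets. *Ehhadh*, the bifunctional enzyme of the classical route and a PPARα target, was the β-oxidation gene that rose, with 256, 285 and 250 CPM on ctrl. and 387, 412 and 792 on cal. res. (1.00 ± 0.27, adjusted p 0.0185). The groups did not overlap, but the call was lost without ctrl. replicate 1 or without ctrl. replicate 3 (adjusted p up to 0.0631). In α-oxidation *Hacl1* was higher, with 173, 208 and 267 CPM on ctrl. and 463, 485 and 505 on cal. res. (1.16 ± 0.15, adjusted p 0.00115), and *Phyh*, given after its value was seen, was lower (-0.46, adjusted p 0.00407). Glycolate oxidase *Hao1* read 283, 287 and 322 CPM on ctrl. and 149, 148 and 136 on cal. res. (-1.04 ± 0.080, adjusted p 0.000210), lower without overlap, and 3 of the 4 members of its role that were tested were lower.

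Of 44 other peroxisome genes, 42 were tested for diet, and 9 were higher and 12 lower on cal. res., a share close to the 47.1% of all genes. The highest differences were those of the acyl-CoA thioesterases *Acot3* (log2 2.63) and *Acot4* (1.06) and of *Pmvk* (0.87), a kinase of the mevalonate pathway. The protease *Lonp2* (-1.61), the thioesterase *Acot6* (-1.20) and the membrane protein gene *Mpv17l* (-1.18) were lowest. Among 10 regulators of these genes and of daily rhythms, 3 were higher and 4 lower: the coactivators *Ppargc1a* (1.94) and *Ppargc1b* (0.88) and the receptor *Hnf4a* (0.69) rose, and the clock output gene *Dbp* (-3.22), the clock repressor *Nr1d1* (-2.13) and *Rxra* (-0.33), the partner of PPARα, fell. Hepatocyte markers moved with the diet: the summed level of 7 genes, most of it *Alb*, ran from 84222 to 90473 CPM on ctrl. and from 158908 to 165802 on cal. res., with 4 of 7 called higher. The adipocyte list of 8 genes, most of it *Car3*, which hepatocytes also express, ran from 1149.8 to 1175 CPM on ctrl. and from 77.0 to 273 on cal. res., and *Plin1*, *Retn* and *Lep* had no counts in either group. Sums of 4 further lists did not overlap between ctrl. and cal. res.: endothelial (116 to 153 and 194 to 222 CPM), stellate (168 to 212 and 249 to 286) and neutrophil markers (3.19 to 4.17 and 5.98 to 7.15) were higher on cal. res., and lymphocyte markers (2.11 to 3.47 and 0.939 to 1.196) lower. The part of cell composition in the diet differences was not tested.

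The CORT experiment asked whether the hormone alone, on ctrl. feeding, changed these genes in WT livers at ZT12. edgeR called 2 of 43, 1 higher and 1 lower, where 8.11% of all genes tested were called, 4.47% higher and 3.64% lower. At an unadjusted p under 0.05 were 11 members, and the share of all genes at that threshold is not given. *Eci2*, the isomerase for unsaturated fatty acids, rose, with 130.4, 136 and 98.1 CPM with vehicle and 233, 182 and 243 with CORT (log2 difference 0.85 ± 0.16, adjusted p 0.0227). *Pex11g* fell, with 43.0, 39.9 and 42.3 CPM with vehicle and 28.5, 30.7 and 30.1 with CORT (-0.49 ± 0.084, adjusted p 0.0179). Neither overlapped between the groups, and both calls were fragile: no member was called without vehicle replicate 1, 2 or 3 or without CORT replicate 1 or 3, and 4 were called without CORT replicate 2. That library stood apart in several members, chosen after their values were seen. *Nudt7* read 680.3, 594 and 734 CPM with vehicle and 660.3, 196 and 668 with CORT, and *Hao1* 249, 256 and 251 CPM with vehicle and 223, 115 and 228 with CORT, with CORT replicate 2 the lowest of all 6 in both genes. The median log2 difference was -0.090 over the members (0.0072 for biogenesis, -0.11 for the others) and -0.0067 over all genes. Of the other peroxisome genes, 3 of 41 tested were lower and edgeR called none higher, beside 8.11% of all genes, with 11 of the 41 at an unadjusted p under 0.05, and of the 10 regulators 3 were called, all higher. Hepatocyte markers summed to 95192 to 101858 CPM with vehicle and 93054 to 102789 with CORT. Other lists did separate without overlap, lower with CORT for adipocyte (2558 to 3332 and 1231 to 1748 CPM), erythrocyte (632 to 785 and 301 to 558), endothelial (95.2 to 119.8 and 77.1 to 92.5) and lymphocyte markers (0.935 to 2.61 and 0.379 to 0.791) and higher for neutrophil markers (1.65 to 3.14 and 4.32 to 5.73). Their part was not tested. The diet and CORT effects come from separate experiments, and the difference between them was not tested.

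**Figure D2:**
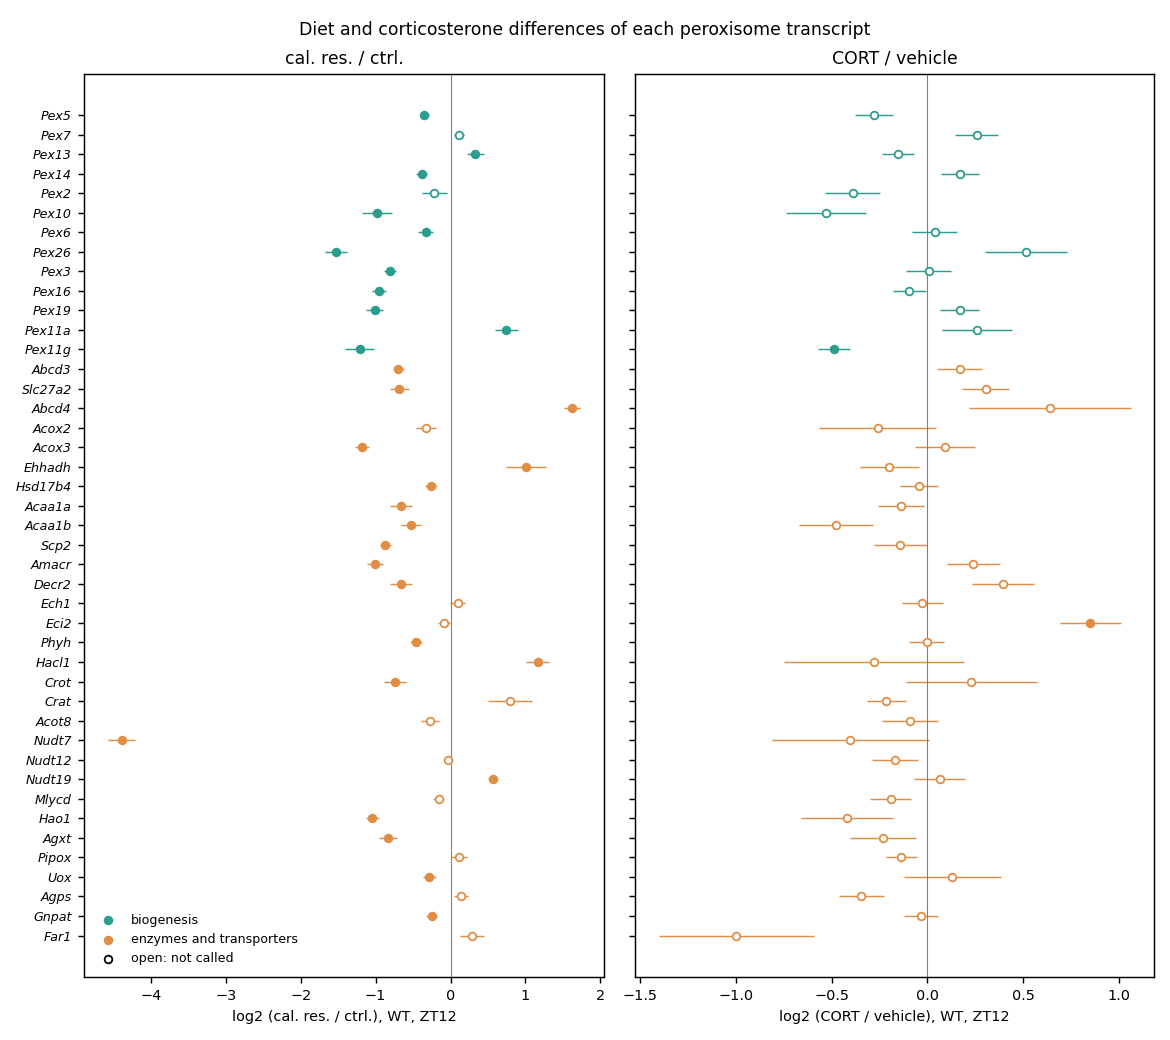
Log2 difference of each of the 43 members tested, cal. res. over ctrl. and CORT over vehicle, in WT livers at ZT12 (points, with bars for the standard error; filled points were called). For diet 25 members are called lower and 6 higher, with *Nudt7* farthest out at -4.39, and for CORT only *Eci2* at 0.85 and *Pex11g* at -0.49 are called.

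To see what GR loss did at each time of day on cal. res., GR LKO livers were compared with WT livers of the same time point. Calls were most numerous at lights-off, and most of the called members were higher in GR LKO. Differences between the time points were not tested. At ZT0, 1 of 43 members was called, higher in GR LKO, beside 0.502% of all genes, 0.280% higher and 0.222% lower. At ZT4 the count was also 1, higher, beside 0.690% of all genes, 0.391% higher and 0.299% lower. By ZT8 it was 7, 6 higher and 1 lower, beside 2.55% of all genes, 1.17% higher and 1.38% lower. ZT12 had the most calls, 14 (10 higher, 4 lower), beside 15.3% of all genes, 7.42% higher and 7.84% lower. After the meal, at ZT16, 5 were called, all higher, beside 4.54% of all genes, 2.53% higher and 2.02% lower, and at ZT20 3 (2 higher, 1 lower), beside 1.47% of all genes, 0.812% higher and 0.662% lower. The median log2 difference of the biogenesis members was 0.096, 0.17, 0.22, 0.24, 0.18 and 0.031 from ZT0 to ZT20, and that of enzymes and transporters -0.022, 0.058, 0.092, 0.15, 0.16 and 0.019. Over all genes tested the medians were -0.0025, -0.0041, 0.00081, -0.0041, 0.0019 and 0.0042.

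Several of these counts rested on particular libraries. At ZT0 no member was called without WT replicate 1 or 3 or GR LKO replicate 2 or 3, and 3 were without GR LKO replicate 1. At ZT4 none was called without WT replicate 2 or GR LKO replicate 2, and 2 were without WT replicate 3. At ZT8 leaving out WT replicate 3 gave 3, GR LKO replicate 3 gave 1, and GR LKO replicate 1 or 2 gave 0. At ZT12 the count was 9 without WT replicate 2 or 3 and 8 without GR LKO replicate 2 or 3. At ZT16 it was 3 without WT replicate 1 and 8 without GR LKO replicate 1. At ZT20 it was 0 without WT replicate 1, 2 or 3 or GR LKO replicate 2.

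Biogenesis members called on cal. res. were all higher in GR LKO. At ZT12, *Pex26* read 27.8, 25.9 and 30.6 CPM in WT and 44.3, 43.2 and 44.7 in GR LKO (log2 difference 0.64 ± 0.085, adjusted p 0.00390). *Pex5*, the main import receptor, read 110.4, 96.8 and 103 CPM in WT and 125, 142 and 149 in GR LKO (0.41 ± 0.098, adjusted p 0.0309), and *Pex19* 117, 121 and 115 CPM in WT and 140.4, 167 and 156 in GR LKO (0.39 ± 0.089, adjusted p 0.0283). *Pex14*, at the docking site, read 34.4, 32.9 and 32.7 CPM in WT and 39.4, 45.5 and 43.2 in GR LKO (0.35 ± 0.084, adjusted p 0.0325). All 4 were without overlap. Of their calls, that of *Pex26* held with any of the 6 libraries left out, while *Pex5* was called in 2 and *Pex19* and *Pex14* each in 1 of those 6 fits. At ZT8 *Pex3*, which anchors new membrane proteins, read 24.9, 23.7 and 24.5 CPM in WT and 34.5, 35.4 and 34.2 in GR LKO (0.51 ± 0.070, adjusted p 0.0141), and was called in 3 of 6 such fits. At ZT16 *Pex11a* read 98.2, 97.4 and 101 CPM in WT and 181, 192 and 151 in GR LKO (0.82 ± 0.10, adjusted p 0.00623) and was called in all 6. edgeR called no biogenesis member at ZT0, ZT4 or ZT20, where 5, 3 and 3 were at an unadjusted p under 0.05 and DESeq2 called 0, 1 and 0.

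In β-oxidation the thiolase *Acaa1b* was called at every time of day. Its 18 WT libraries on cal. res. ran from 417 to 828 CPM with a median of 565 and its 18 GR LKO libraries from 1082 to 2375 CPM with a median of 1551. At ZT12 the values were 557, 439.9 and 473 CPM in WT and 1556, 2059 and 2375 in GR LKO, and the genotypes were apart at all 6 time points. The log2 difference was 1.26 ± 0.12, adjusted p 0.0165 at ZT0, 0.96 (adjusted p 0.0149) at ZT4, 1.25 (0.0101) at ZT8, 2.02 (0.000800) at ZT12, 1.86 (0.000227) at ZT16 and 1.16 (0.0373) at ZT20. With each library left out in turn it was called in all 6 fits at ZT12 and ZT16, in 4 at ZT4 and ZT8, in 2 at ZT0 and in 1 at ZT20. Its paralog *Acaa1a* was higher at ZT8 (0.41 ± 0.070, adjusted p 0.0305), ZT12 (0.60 ± 0.11, adjusted p 0.0139) and ZT16 (0.61 ± 0.089, adjusted p 0.0114), called in 1, 5 and 5 of 6 such fits. *Ehhadh* read 388, 303 and 358 CPM in WT and 556, 682 and 706 in GR LKO at ZT12 (0.88 ± 0.13, adjusted p 0.00647) and was also higher at ZT8 (0.66 ± 0.11, adjusted p 0.0276), where 2 of 6 fits called it, and its GR LKO libraries also lay above all of WT at all 6 time points. *Acox2* went the other way. At ZT12 it read 154, 139 and 143 CPM in WT and 46.6, 54.8 and 49.9 in GR LKO (-1.53 ± 0.094, adjusted p 0.000210), the GR LKO libraries well below all of WT, and the call held in all 6 fits.

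Of the transport and export genes called, *Abcd4* was lower in GR LKO, and *Abcd3*, *Crot* and *Nudt7* were higher. *Abcd3*, which brings fatty acids into the organelle, was higher in GR LKO at ZT12, with 538, 576 and 526 CPM in WT and 849, 849.6 and 885 in GR LKO (0.65 ± 0.078, adjusted p 0.00256), and at ZT16 (0.66 ± 0.11, adjusted p 0.0158, called in 4 of 6 fits with a library left out). *Abcd4* was lower, with 21.2, 14.2 and 25.3 CPM in WT and 7.27, 6.04 and 5.11 in GR LKO at ZT12 (-1.73 ± 0.23, adjusted p 0.00415), and its WT libraries lay above those of GR LKO at all 6 time points. It was also called at ZT8 (-1.26 ± 0.18, adjusted p 0.0170) and ZT20 (-0.87 ± 0.13, adjusted p 0.0319), in 3 and 1 of 6 fits. *Crot* read 225, 252 and 213 CPM in WT and 403, 437 and 576 in GR LKO at ZT12 (1.03 ± 0.15, adjusted p 0.00548). It was also higher at ZT8 (0.84 ± 0.12, adjusted p 0.0175), ZT16 (1.25 ± 0.15, adjusted p 0.00474) and ZT20 (0.55 ± 0.086, adjusted p 0.0336), called in 2, 6 and 1 of 6 fits. *Nudt7* read 64.6, 97.9 and 55.3 CPM in WT and 205, 209 and 133 in GR LKO at ZT12 (1.32 ± 0.25, adjusted p 0.0150), without overlap, and kept its call in 4 of 6 fits. *Decr2*, a reductase for unsaturated fatty acids, was higher at ZT8 (0.64 ± 0.11, adjusted p 0.0319, 1 of 6 fits).

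Of the other peroxisome genes on cal. res. at ZT12, 10 of 42 tested were higher and 3 lower in GR LKO, beside 15.3% of all genes. *Hao2*, an oxidase of long-chain hydroxy acids, had means of 0.154 CPM in WT and 11.3 in GR LKO, too near 0 in WT for a meaningful fold. *Acot4* (1.62) and *Acot3* (1.40) were also higher, and *Dnm1l* (-0.52), a division GTPase, and *Pxmp4* (-0.40) lower. Hepatocyte markers were lower in GR LKO at ZT12, with 5 of 7 called, and summed to 165871 to 172975 CPM in WT and 114373 to 132265 in GR LKO, most of it *Alb*. Of 8 Kupffer and myeloid markers 4 were higher, with sums of 47.6 to 78.6 and 104 to 168 CPM, *Clec4f* the most abundant. The adipocyte list summed to 272 to 426 CPM in WT and 1497 to 1843 in GR LKO, with *Car3* at 317 and 1718 CPM, and *Plin1* and *Lep* had no counts in either genotype. Endothelial (149 to 180.01 and 199 to 222 CPM), cholangiocyte (26.4 to 31.2 and 31.5 to 32.5) and neutrophil sums (1.36 to 1.96 and 2.60 to 3.81) were also higher in GR LKO without overlap. At other times on cal. res., hepatocyte sums were lower in GR LKO without overlap at ZT0, ZT8 and ZT16, and adipocyte sums higher at all 5. Endothelial sums were higher at ZT4 and ZT8, and lymphocyte and neutrophil sums at ZT0 and ZT16, also without overlap. The part of these lists in the differences of the peroxisome genes was not tested.

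On ctrl. the same comparison called from 0 to 5 members at a time point, and the difference from cal. res. in these counts was not tested. At ZT0, 5 of 43 were called, all higher in GR LKO, beside 0.536% of all genes, 0.443% higher and 0.0936% lower. At ZT4, 1 was called, higher, beside 0.195% of all genes, 0.144% higher and 0.0508% lower. At ZT8 there were 5 (4 higher, 1 lower), beside 1.43% of all genes, 0.838% higher and 0.596% lower. At ZT12 only *Phyh* was called, lower, beside 2.08% of all genes, 0.814% higher and 1.27% lower. At ZT16 edgeR called none, beside 1.98% of all genes, 1.03% higher and 0.947% lower. Of the members, 14 were at an unadjusted p under 0.05 and DESeq2 called 9, and the shares of all genes for these counts are not given. At ZT20 only *Abcd4* was called, lower, beside 0.420% of all genes, 0.227% higher and 0.193% lower. The medians of biogenesis members were 0.30, 0.14, 0.099, 0.11, 0.16 and 0.11 from ZT0 to ZT20, of enzymes and transporters 0.19, 0.053, 0.052, 0.063, 0.098 and -0.0093 and of all genes tested -0.011, -0.0020, -0.00096, 0.0037, -0.0016 and 0.0056. With a replicate block edgeR called no member at any of the 6 time points, and 1 fit over all ctrl. libraries called none at ZT8. Leaving out libraries changed most of these counts. At ZT0 the count was 0 without WT replicate 1 or 2 or any GR LKO replicate and 2 without WT replicate 3. At ZT4 it was 0 without any WT replicate or GR LKO replicate 1. At ZT8 it was 0 without WT replicate 1, 1 without WT replicate 2 or 3 or GR LKO replicate 2, 2 with GR LKO replicate 3 left out and 3 with its replicate 1 left out. At ZT12 it was 0 without WT replicate 2, 3 or 4 or any GR LKO replicate, and without WT replicate 1 another member was called, higher, in place of *Phyh*. At ZT16 the count was 1 without WT replicate 3, and at ZT20 0 without any WT replicate or GR LKO replicate 2 or 3, and 1, higher and not *Abcd4*, without GR LKO replicate 1.

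Members higher in GR LKO on ctrl. came from both classes. *Acaa1b* again stood out: its 22 WT libraries ran from 640.2 to 1626 CPM with a median of 1074 and its 20 GR LKO libraries from 1626 to 2929.8 CPM with a median of 2203, and within each time point the genotypes did not overlap. It was called at ZT0 (1.28 ± 0.19, adjusted p 0.0476), ZT4 (1.09 ± 0.093, adjusted p 0.0116) and ZT8 (0.79 ± 0.12, adjusted p 0.0139), in 0 of 6, 2 of 6 and 6 of 8 fits with a library left out. At ZT0 the membrane protein insertion gene *Pex16* read 62.4, 54.2 and 53.0 CPM in WT and 95.8, 86.3 and 92.4 in GR LKO (0.69 ± 0.093, adjusted p 0.0382, called in 0 of 6 fits). *Decr2* (0.83 ± 0.099, adjusted p 0.0337) and *Acaa1a* (0.80 ± 0.091, adjusted p 0.0337) were each called in 1, and *Crat* (0.64 ± 0.093, adjusted p 0.0449) in 0. At ZT8, *Pex11a* read 68.5, 59.2, 65.4 and 70.9 CPM in WT and 100.03, 111, 85.1 and 82.2 in GR LKO (0.52 ± 0.099, adjusted p 0.0393, called in 1 of 8 fits). *Crat* (0.72 ± 0.12, adjusted p 0.0200) and *Ehhadh* (0.54 ± 0.095, adjusted p 0.0265) were higher there too, in 5 and 3 of 8. *Phyh* was lower at ZT8 (-0.34 ± 0.064, adjusted p 0.0362) and at ZT12 (-0.39 ± 0.076, adjusted p 0.0369), where it read 2132, 2193, 2005 and 2299.6 CPM in WT and 1755, 1519.9, 1728 and 1629 in GR LKO, and *Abcd4* at ZT20 (-1.29 ± 0.19, adjusted p 0.0455), with no call in any fit that left out a library. edgeR called no biogenesis member at ZT4, ZT12, ZT16 or ZT20, where 5, 3, 3 and 0 were at an unadjusted p under 0.05 and DESeq2 called 0 at each. Hepatocyte markers at ZT12 summed to 82130.3 to 97683 CPM in WT and 66300 to 85483 in GR LKO on ctrl., with 4 of 7 called lower, and the adipocyte list to 2221 to 3657 and 3893 to 6221 CPM. At ZT0 the hepatocyte sums were 83855 to 112541 and 70109.9 to 82872 CPM and the adipocyte sums 2173 to 4469 and 7125 to 9416, neither with overlap. Hepatocyte sums were lower in GR LKO without overlap at ZT4 and ZT16 too, and adipocyte sums higher at every time point but ZT20. Cholangiocyte sums at ZT4 and endothelial sums at ZT16 were lower without overlap. The part of these lists was not tested.

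Averaging the genotype effect over the 6 time points gave 1 test per diet and drew on all its libraries. On cal. res. 26 of 43 members were called, 20 with a higher and 6 with a lower level in GR LKO, beside 32.9% of all genes tested, 15.6% higher and 17.3% lower. On ctrl. 24 were called, 19 higher and 5 lower, beside 18.6% of all genes, 10.02% higher and 8.59% lower. Of the 13 biogenesis members, 8 were called on cal. res., all higher, and all 13 had a positive log2 difference, and on ctrl. 9 were called, all higher, and 12 of 13 were positive. Enzymes and transporters were mixed, with 12 higher and 6 lower of 30 on cal. res. and 10 higher and 5 lower on ctrl. Effects were small for most: the median log2 difference was 0.15 for biogenesis members, 0.046 for the others and 0.0010 for all genes on cal. res., and 0.13, 0.045 and -0.0035 on ctrl. Summed over the 13 biogenesis members, the mean level from ZT0 to ZT20 on cal. res. was 712, 694, 733, 764, 774 and 684 CPM in WT and 759, 801, 882, 911, 954 and 711 in GR LKO, and on ctrl. 684, 736, 792, 843, 776 and 740.3 CPM and 887, 839, 872, 938, 904 and 789.

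By role, all 3 genes of membrane protein insertion were called higher on both diets. *Pex19* libraries on cal. res. ran from 99.0 to 153 CPM with a median of 120 in WT and from 119 to 184 CPM with a median of 154 in GR LKO, and at each of the 6 time points every GR LKO library lay above every WT library (0.32 ± 0.033, adjusted p 1.08e-08). On ctrl. its difference was 0.21 ± 0.039, adjusted p 0.000135. *Pex3* was higher on cal. res. (0.31 ± 0.044, adjusted p 3.43e-06) and *Pex16* on ctrl. (0.28 ± 0.054, adjusted p 0.000203). *Pex11a* was higher on both diets (0.36 ± 0.062, adjusted p 4.72e-05 on cal. res. and 0.45 ± 0.086, adjusted p 0.000202 on ctrl.). *Pex26* was higher on cal. res. (0.25 ± 0.047, adjusted p 0.000105) and on ctrl. (0.36 ± 0.089, adjusted p 0.00380), where its call was lost without replicate 2 of every group (adjusted p 0.0879). Both ubiquitin ligases, *Pex2* and *Pex10*, missed the call on either diet.

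Among enzymes, *Acaa1b* averaged 1.41 ± 0.064, adjusted p 2.06e-15 on cal. res. and 1.02 ± 0.096, adjusted p 9.22e-10 on ctrl., and *Acaa1a* 0.44 ± 0.041, adjusted p 1.71e-09 and 0.39 ± 0.043, adjusted p 1.52e-08. *Ehhadh* was higher in GR LKO on both diets (0.59 ± 0.068, adjusted p 1.01e-07 and 0.51 ± 0.064, adjusted p 2.4e-07), as was *Decr2* (0.45 ± 0.064, adjusted p 3.29e-06 and 0.38 ± 0.070, adjusted p 0.000138). *Crot* libraries on cal. res. ran from 213 to 863 CPM with a median of 372 in WT and from 403 to 1101 CPM with a median of 731 in GR LKO, with the genotypes apart at all 6 time points (0.80 ± 0.062, adjusted p 7.81e-11), and on ctrl. the difference was 0.27 ± 0.058, adjusted p 0.000650. *Nudt7* was higher on cal. res. (0.69 ± 0.13, adjusted p 0.000148) and *Crat* on ctrl. (0.66 ± 0.097, adjusted p 4.27e-06). *Abcd4* was lower on both diets (-0.90 ± 0.078, adjusted p 6.5e-10 and -0.42 ± 0.087, adjusted p 0.000544). Oxidation genes of other routes were lower as well: *Hao1* on cal. res. (-0.42 ± 0.088, adjusted p 0.000443) and *Phyh* on ctrl. (-0.34 ± 0.038, adjusted p 3.94e-08). On the other diet their differences were also negative at every time point. They ran from -0.45 to -0.044 for *Hao1* on ctrl. and from -0.51 to -0.12 for *Phyh* on cal. res.

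Around these members, 12 of 43 other peroxisome genes were higher and 3 lower in GR LKO on cal. res., beside 32.9% of all genes, and 13 of 42 higher and 1 lower on ctrl., beside 18.6%. The thioesterases *Acot3* (1.09 on cal. res., 2.14 on ctrl.) and *Acot4* (0.74 and 0.71) were among them. Of the regulators, *Nr1d1* (0.64) and *Ppara* (0.34), which encodes PPARα, were higher on cal. res., and *Ppargc1a* (-0.35) and *Hnf4a* (-0.19) lower. On ctrl. 2 regulators were higher and 1 lower. Hepatocyte markers were lower on average in GR LKO, 6 of 7 on cal. res. and 5 of 7 on ctrl. On cal. res. all 6 endothelial markers, 1 of 6 stellate, 1 of 4 cholangiocyte, 1 of 4 lymphocyte, 1 of 4 neutrophil, 1 of 5 erythrocyte and 2 of 4 adipocyte markers that were tested were higher. edgeR called none of the 8 Kupffer and myeloid markers, with 5 at an unadjusted p under 0.05. On ctrl. 3 of 4 adipocyte and 1 of 5 erythrocyte markers were higher. Their part in the averages was not tested.

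Whether GR loss acted differently on the diets was tested as an interaction. A constant shift between the library sets of the diets cancels in it, but a genotype effect that depends on the set cannot be told apart from one that depends on diet. It was called for 5 of 43 members, 2 with a positive and 3 with a negative difference of effects, cal. res. minus ctrl. Of all genes tested 3.01% were called, 0.994% positive and 2.02% negative. All 5 were enzymes or transporters, and 4 belong to product export and coenzyme A turnover. The difference of the genotype effects, cal. res. minus ctrl., was 0.68 ± 0.15, adjusted p 0.00382 for *Nudt7* and 0.53 ± 0.087, adjusted p 7.03e-05 for *Crot*, a greater log2 effect on cal. res. It was -0.48 ± 0.12, adjusted p 0.0181 for *Crat*, -0.47 ± 0.12, adjusted p 0.0129 for *Abcd4* and -0.23 ± 0.061, adjusted p 0.0221 for *Mlycd*. For *Abcd4* the averaged effects were -0.90 on cal. res. and -0.42 on ctrl., so its negative value is a larger reduction in GR LKO on cal. res. For *Mlycd*, which degrades malonyl-CoA, the averaged effects were -0.14 on cal. res. and 0.093 on ctrl. edgeR called no biogenesis member, with 2 at an unadjusted p under 0.05 and 0 by DESeq2. The calls rested on few libraries: 3 members were called without replicate 1 of every group, 0 without replicate 2 and 3 without replicate 3, and adjusted p then reached 0.117 for *Nudt7*, 0.0593 for *Crot*, 0.184 for *Crat*, 0.305 for *Abcd4* and 0.288 for *Mlycd*. Of 43 other peroxisome genes 1 was higher (*Ephx2*, 0.33) and 3 lower (*Acot3*, -1.05; *Mvk*, -0.42; *Gstk1*, -0.22). edgeR called none of the 10 regulators, with 1 at an unadjusted p under 0.05.

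**Figure D3:**
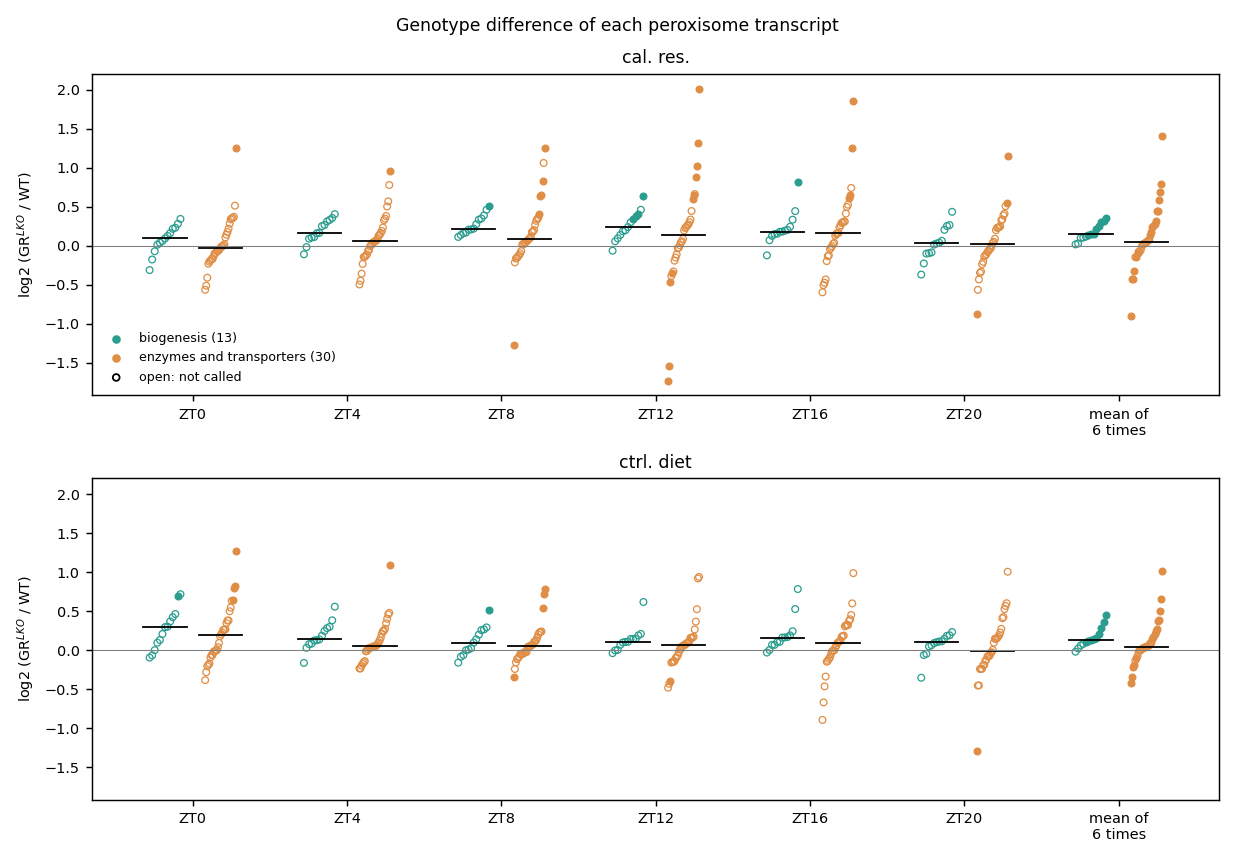
Log2 difference GR LKO over WT (vertical axis) of each of the 43 members tested, at each time point and averaged over the 6 (horizontal axis), on cal. res. and ctrl.; filled points were called and black bars mark medians. On cal. res. 14 members are called at ZT12, with *Acaa1b* at 2.02 and *Abcd4* at -1.73, and for the averages all called biogenesis members lie above 0.

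Because nuclear receptors such as PPARα bind a direct repeat, the promoters of the members were searched for 2 copies of AGGTCA 1 base apart, with at most 2 mismatches in the 12 letters, on both strands. RefSeq promoter windows of GRCm38.p6, each 300 bases around a transcript start, were found for 37 of the 44 members. The repeat was in 1 of the 37 (2.7%), and in 1190 of all 27025 genes with a window (4.4%). The gene was *Acox2*, the oxidase that dropped at ZT12 in GR LKO on cal. res. It has 2 windows, and the other, chr14:8258970-8259269, has no match, with 3 mismatches at best. The window with the match, chr14:8258790-8259089 on the minus strand, is printed 5′ to 3′ with the repeat in capitals, which has 2 mismatches and starts at base 260 of the window:
*Acox2*: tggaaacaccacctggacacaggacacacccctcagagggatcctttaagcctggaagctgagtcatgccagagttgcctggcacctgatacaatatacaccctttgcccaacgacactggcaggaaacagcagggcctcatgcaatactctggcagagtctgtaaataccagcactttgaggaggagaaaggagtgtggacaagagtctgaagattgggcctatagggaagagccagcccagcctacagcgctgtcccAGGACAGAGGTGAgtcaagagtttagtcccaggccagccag
No match says only that these letters are not in the window, and a match is a description of the sequence.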

How the data were processed

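PolyA RNA-seq of 90 mouse livers was deposited by the authors as estimated counts per gene from Salmon, in 4 tables of 27654 Ensembl gene IDs. Symbols were matched for 27244 IDs, and the other 410 held 0.107% of the counts. The members and lists were chosen with earlier results of these data known. Estimated counts were rounded and analysed in R 4.3.3. Each comparison was fitted with edgeR 4.0.16 (TMM scaling, filterByExpr at a minimum count of 10, quasi-likelihood F test), with p adjusted by Benjamini-Hochberg over all genes tested and a threshold of 0.05. Time points were compared on their own libraries. Averages over the day used all libraries of a diet, and the interaction all of the time series. Log2 CPM used a prior count of 2. JTK_CYCLE was written in R with the exact null distribution, on variance-stabilized values from DESeq2 1.42.0 of genes counted at least 1 time in a group, with Bonferroni over 6 phases and Benjamini-Hochberg over genes. Changed rhythms were tested with limma 3.58.1. Levels per kb used the union of exons of GENCODE. Scripts were tested on simulated data, and none of 102 pairs of libraries within groups was identical.

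Full statistics were given, per comparison, for up to 4 biogenesis members and up to 8 others with the largest absolute log2 difference among those called, and for rhythms for 3 and 6 with the highest ratio of peak to trough in WT on cal. res. At most 3 genes per direction were named from the lists of other peroxisome genes and regulators. Marker lists covered hepatocytes, Kupffer and myeloid, endothelial, stellate, cholangiocyte, lymphocyte, neutrophil, erythrocyte and adipocyte cells. Alternatives were DESeq2 with its size factors, no low-count filter, a replicate block, 1 fit per diet, other rhythm tests and scales, and leaving out libraries. Calls between time points or experiments were not compared by a test. A deposited table of variance-stabilized values of the CORT experiment was not used, since the tests need counts.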

Additional observations from a re-analysis of the deposited data

Results flagged for a closer look

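Of 258 tests of a group of 4 libraries for a library far from the rest, 14 passed, and the only groups of 4 are ctrl. groups of the time series. By chance about 1 in 20 such tests passes. *Pex5* was at 139 CPM in replicate 4 of WT at ZT8, above the others at 128 to 129.5. In WT at ZT8, replicate 1 had 88.8 CPM of *Decr2*, below the range of 118 to 119.9 of the others. Replicate 3 of GR LKO at ZT8 had 91.0 CPM of *Pex16*, above the rest at 85.6 to 86.4. *Pipox* lay at 297 CPM in replicate 2 of GR LKO at ZT8, above the others at 274 to 278. In WT at ZT12, replicate 1 had 703 CPM of *Abcd3*, above the range of 580.4 to 588 of the others. Replicate 1 of WT at ZT12 had 1539 CPM of *Acaa1b*, above its companions at 857 to 914. *Agxt* stood at 216 CPM in replicate 4 of WT at ZT12, above the others at 206 to 207. In GR LKO at ZT12, replicate 2 had 101 CPM of *Pex26*, above the range of 62.5 to 65.6 of the others. Replicate 3 of GR LKO at ZT12 had 103 CPM of *Pex16*, above the rest at 63.6 to 68.5. *Scp2* read 3736 CPM in replicate 4 of WT at ZT16, below the others at 4099.5 to 4109. In WT at ZT20, replicate 3 had 153 CPM of *Pex5*, above the range of 127 to 130.02 of the others. Replicate 3 of WT at ZT20 had 72.5 CPM of *Pex16*, above its companions at 58.4 to 60.3. *Scp2* was at 4539.9 CPM in replicate 2 of WT at ZT20, above the others at 3944 to 4044. In WT at ZT20, replicate 4 had 39.9 CPM of *Gnpat*, below the range of 49.0 to 50.7 of the others.

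The edgeR test of the interaction of genotype and diet, averaged over the 6 time points, called 5 members. Without replicate 2 of every group it called 0, and diet cannot be told apart from library set. On the log2 scale the difference, cal. res. minus ctrl., was 0.68 for *Nudt7*, 0.53 for *Crot*, -0.48 for *Crat*, -0.47 for *Abcd4* and -0.23 for *Mlycd*. A rhythm that differed between genotypes on cal. res. was called by limma for *Acaa1b*, with F 11.8, and for *Acox2*, with F 11.2, and neither was called without replicate 1, 2 or 3 of every group.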

How the results depend on the processing

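No named gene reversed under the alternatives run. The members called at ZT12 and ZT20 on ctrl. were lower, and without replicate 1 of WT at ZT12 or of GR LKO at ZT20 another was called instead, higher. With edgeR, the diet count (31) and the averaged counts (26 on cal. res., 24 on ctrl.) stayed within 1.5 times under DESeq2, without the filter on low counts and with a replicate block. DESeq2 called more members at single time points. The shares of all genes given above for the time points are those of edgeR in the main fits. Counts under the alternatives are given without such shares, so they are not read as results about the members. On cal. res. DESeq2 called 6 at ZT0, 7 at ZT4, 12 at ZT8, 13 at ZT16 and 6 at ZT20, and on ctrl. 10, 2, 10, 4, 9 and 5 from ZT0 to ZT20. With 1 fit over all libraries of a diet the counts on cal. res. were 2 at ZT0, 5 at ZT4, 10 at ZT16 and 7 at ZT20, and on ctrl. 11 at ZT0, 0 at ZT8, 5 at ZT12, 6 at ZT16 and 6 at ZT20. Without the filter the ctrl. counts were 0 at ZT12, 1 at ZT16 and 0 at ZT20, and 1 changed rhythm was called on cal. res. An edgeR F test of any difference among time points called 33 members on cal. res. in WT and 32 in GR LKO. The share of all genes that this test called is not given. The cause of these changes in counts was not tested.

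Replicate numbers do not pair the libraries: in 14 comparisons, 5 of 44 pairs correlated above 0.1, from r -0.157 to 0.209, and 13 were closest to their own number. A replicate block, which spends libraries on this pairing, gave 0 for CORT. On cal. res. the block gave 0 at ZT0, 0 at ZT4, 1 at ZT8, 9 at ZT12 and 1 at ZT20, on ctrl. 0 at ZT0, 0 at ZT4, 0 at ZT8, 0 at ZT12 and 0 at ZT20, and 1 changed rhythm on cal. res. At unadjusted p under 0.05 edgeR without the block had 13, 12, 14, 23, 19 and 14 members on cal. res. and 16, 14, 13, 13, 14 and 11 on ctrl. from ZT0 to ZT20. The shares of all genes at that threshold are not given.

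Leaving out libraries in turn gave 24 to 33 members for diet and 0 to 4 for CORT. From ZT0 to ZT20 the ranges on cal. res. were 0 to 3, 0 to 2, 0 to 6, 8 to 14, 3 to 8 and 0 to 2, and on ctrl. 0 to 2, 0 to 1, 0 to 4, 0 to 1, 0 to 1 and 0 to 1. The averages ranged over 19 to 23 on cal. res. and 18 to 24 on ctrl., and the interaction over 0 to 5. Rhythmic members ranged over 4 to 5 in WT and 2 to 4 in GR LKO on cal. res., and 15 to 18 and 5 to 18 on ctrl., with 21 for GR LKO without its replicate 1 at ZT20 alone. Changed rhythms ranged over 0 to 0 on cal. res. and 0 to 1 on ctrl. These fits hold fewer libraries, and no other cause was tested. The fits without replicate 1 of GR LKO at ZT20 on ctrl., and the rhythm test on genes past the low-count filter, were chosen after seeing the data.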
